A study of Mus musculus with 8 samples.

Results

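The p53 and cyclin-dependent kinase inhibitor axis was followed here through 10 genes among the 22026 gene names of the count tables. They were chosen by name: Trp53, Mdm2, Cdkn1a, Cdkn1b, Cdkn2a, Cdkn2b, Ccng1, Bax, Bbc3 and Sfn. All 10 were found, and the counts of a gene's transcripts were summed. Trp53 and Cdkn2a were also read transcript by transcript.

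RNA sequencing covered 8 libraries of the BALB/c mouse breast cancer cell lines TS/A and 4T1, 2 libraries for each line and vector. The cells had been transduced with a virus vector expressing Gpr56 (Adgrg1, an adhesion receptor that binds type III collagen) or with an empty vector. They were grown in RPMI with 10% FCS and, per the series' design text, with type III collagen for 72 h before RNA was extracted. The 4 groups, each with 2 libraries, were TS/A labelled Gpr56, TS/A labelled empty, 4T1 labelled Gpr56 and 4T1 labelled empty. The sample titles contrast a control with collagen on empty-vector cells where the characteristics contrast the vectors, and the groups follow the characteristics. Nothing states whether a line was a clone or whether paired libraries had separate cultures as their source. The p-values therefore cover only the spread among these libraries, and that spread may be technical.

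The transcription factor p53 (Trp53) stops the cell cycle or starts cell death after DNA damage and oncogene signalling. Mdm2 is a p53 target that in turn marks p53 for destruction. Cdkn1a (p21), Ccng1, Bax, Bbc3 (Puma) and Sfn (14-3-3 sigma) are well-known p53 targets. The Cdkn2a locus makes 2 unrelated proteins from separate first exons joined to a shared exon 2: Arf, which blocks Mdm2, and p16Ink4a, which blocks the kinases CDK4 and CDK6. Its neighbour Cdkn2b encodes the related inhibitor p15Ink4b, and Cdkn1b encodes p27, an inhibitor of CDK2. The Cdkn2a-Cdkn2b region is often silenced or deleted in tumours, and 4T1 is commonly described as lacking functional p53. Neither DNA nor protein was measured here.

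The libraries held between 10510569 and 25959142 reads, and levels are given as CPM, reads scaled to a common library size by TMM. Adgrg1, the transduced gene, stood at 22.6 and 13.3 CPM in TS/A libraries labelled Gpr56, against 34.8 and 16.3 CPM in TS/A empty libraries. In 4T1 it stood at 90.5 and 100.1 CPM with the Gpr56 vector, against 2.53 and 2.77 CPM with the empty vector. Adgrg1 mRNA thus separated the vector labels of 4T1 but did not separate those of TS/A, and TS/A groups are called by label throughout. The 8 epithelial markers summed to between 190.2 and 257 CPM of the library total in TS/A and to between 2202 and 3262 CPM in 4T1. In TS/A, Krt8, Krt7, Epcam, Cdh1, Cldn4 and Cldn7 were each at or below 0.574 CPM, and Krt18 and Krt19 made up nearly all of the sum. The 10 fibroblast markers summed to between 141 and 354 CPM in TS/A, nearly all Col1a1, and to between 9.30 and 16.3 CPM in 4T1. The 9 endothelial markers summed to between 1.33 and 2.35 CPM in TS/A and to between 66.0 and 91.3 CPM in 4T1, nearly all Eng, and the 12 immune markers to between 8.13 and 13.1 CPM in TS/A and to between 13.5 and 28.4 CPM in 4T1. The part of these lists in the differences between the lines was not tested.

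The first exons of Cdkn2a are shown because they part the Arf and Ink4a transcripts on which the sharpest difference between the lines rests. Both are coding parts of exon 1 on the minus strand of GRCm38 in GENCODE release M21, chr4:89294334-89294523 for Arf and chr4:89281986-89282111 for Ink4a. Capitals mark the 190 and 126 bases of exon 1, and the 20 lower-case bases are the shared start of exon 2.
Arf first exon: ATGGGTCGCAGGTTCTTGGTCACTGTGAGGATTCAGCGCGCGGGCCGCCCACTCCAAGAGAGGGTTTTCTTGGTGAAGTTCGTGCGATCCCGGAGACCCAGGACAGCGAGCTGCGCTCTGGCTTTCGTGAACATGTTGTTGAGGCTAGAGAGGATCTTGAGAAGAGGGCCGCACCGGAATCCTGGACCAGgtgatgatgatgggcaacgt
Ink4a first exon: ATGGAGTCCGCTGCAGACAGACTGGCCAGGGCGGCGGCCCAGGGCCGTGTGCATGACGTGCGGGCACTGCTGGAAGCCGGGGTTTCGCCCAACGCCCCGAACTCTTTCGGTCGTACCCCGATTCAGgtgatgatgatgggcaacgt

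The ends of Trp53 are shown because 2 of its 4 transcript entries carry an alternative start of exon 11. Capitals mark the coding part of exon 11 on the plus strand, chr11:69591350-69591428 for the usual end and chr11:69591254-69591305 for the alternative end. The 20 lower-case bases before them are the same end of exon 10 in both.
Trp53 usual end: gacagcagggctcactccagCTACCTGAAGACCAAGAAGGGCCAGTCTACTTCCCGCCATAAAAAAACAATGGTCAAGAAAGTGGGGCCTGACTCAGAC
Trp53 alternative end: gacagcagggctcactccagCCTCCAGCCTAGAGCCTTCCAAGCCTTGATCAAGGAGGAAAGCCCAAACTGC

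Cdkn2a (chr4:89274471-89294653, minus strand of GRCm38) was abundant in TS/A and had next to no reads in 4T1. It held 5119 and 3464 reads in TS/A Gpr56 libraries, against 0 and 0 reads in 4T1 Gpr56 libraries. Under the empty label it held 4446 and 3828 reads in TS/A, against 0 and 1 read in 4T1. The groups did not overlap under either vector label. Those reads came to 195, 159.8, 182 and 206 CPM in TS/A Gpr56 libraries 1 and 2 and TS/A empty libraries 1 and 2. A floor of 3 reads over both 4T1 Gpr56 libraries is 0.0946 CPM, so Cdkn2a was at least 1894-fold higher in TS/A with the Gpr56 label. With the empty vector the ratio of summed reads was 7656, with a 95% counting interval of 1374 to 302433. The difference passed edgeR's quasi-likelihood test under the Gpr56 label (adjusted p = 6.33e-07) and under the empty label (adjusted p = 6.65e-07). Such intervals and floors cover counting error only.

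Nearly all Cdkn2a reads of TS/A were assigned to the Arf transcript. Its entry held 5089 and 3452 reads in TS/A Gpr56 libraries, against 4412 and 3786 reads in TS/A empty libraries. The Ink4a entry held 30 and 12 reads in TS/A Gpr56 libraries, against 34 and 42 reads in TS/A empty libraries. Per transcript length, the Arf entry stood at 208 and 168 RPKM with the Gpr56 label and at 202 and 206 RPKM with the empty label, while the Ink4a entry stood between 0.612 and 2.40 RPKM. The Ink4a share of the gene's reads ran from 0.346% to 1.10% over the 4 TS/A libraries, with Wilson 95% intervals reaching from 0.198% to 1.48%. The Gpr56-labelled libraries had the lower shares, and this difference was not tested. The Ink4a transcript has 277 bases that the Arf transcript lacks, 207 in exon 1 and 70 at its 3′ end, and shares 575 bases with it. Reads of the Ink4a entry may therefore come from outside the printed exon, and how the counting program split shared reads is not given in the sources used here.

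Cdkn2b (chr4:89306299-89311039), which lies 11.6 kb from Cdkn2a, showed the same split between the lines. It held 864 and 889 reads in TS/A Gpr56 libraries, against 0 and 0 reads in 4T1 Gpr56 libraries. For the empty vector it held 753 and 677 reads in TS/A, against 0 and 2 reads in 4T1. No 4T1 library came near any TS/A library. Cdkn2b was at least 387-fold higher in TS/A under the Gpr56 label (quasi-likelihood adjusted p = 5.03e-06, edgeR). With the empty vector the ratio of summed reads was 662, with a 95% counting interval of 183 to 5468 (adjusted p = 5.96e-06).

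Of 6 other genes on this stretch of chromosome 4, Mtap, Klhl9, Hacd4 and Focad were read in 4T1. Mtap, the methylthioadenosine phosphorylase gene 93.4 kb from Cdkn2a, stood at 452 to 509 CPM over the 4 TS/A libraries and at 433 to 591 CPM over the 4 4T1 libraries. Klhl9, an adaptor of a ubiquitin ligase, stood at 32.2 to 44.5 CPM in TS/A and at 34.0 to 44.9 CPM in 4T1. Hacd4, an enzyme of fatty acid elongation, stood at 4.63 to 8.26 CPM in TS/A and at 6.09 to 8.80 CPM in 4T1. The ranges of these 3 genes overlapped between the lines. Focad went the other way from Cdkn2a, at 3.69 to 5.81 CPM in TS/A and at 31.2 to 38.5 CPM in 4T1 (log2 fold change -3.09, SE 0.20, adjusted p = 1.26e-05 with the empty vector). On the far side of Cdkn2b, Dmrta1 and Elavl2 had no read in any of the 8 libraries. Near-absence of reads in 4T1, at a level that is high in TS/A, was thus seen at Cdkn2a and Cdkn2b among these genes.

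**Figure D1:**
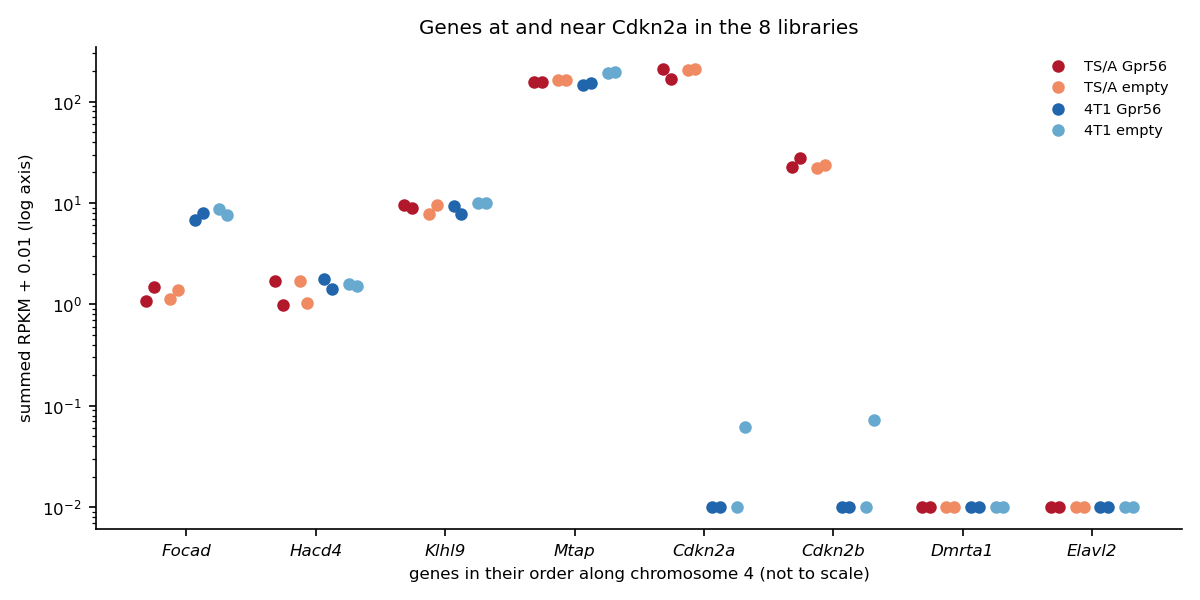
Summed RPKM plus 0.01 on a log axis for Cdkn2a and 7 genes around it, in their order along chromosome 4 and not to scale, with 1 point per library and TS/A left of 4T1. Cdkn2a and Cdkn2b stand at or near the bottom in the 4 libraries of 4T1, while Klhl9, Hacd4 and Mtap overlap between the lines and Dmrta1 and Elavl2 are at 0 reads in all 8.

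Trp53 mRNA (chr11:69580359-69591873, plus strand) was several-fold higher in TS/A. It stood at 226 and 181 CPM in TS/A Gpr56 libraries, against 42.7 and 45.9 CPM in 4T1 Gpr56 libraries. With the empty vector it stood at 244 and 193 CPM in TS/A, against 40.8 and 44.8 CPM in 4T1. Every TS/A library lay far above every 4T1 library. The fold change was 4.60 under the Gpr56 label (log2 2.20, SE 0.17, adjusted p = 2.26e-05, edgeR quasi-likelihood) and 5.11 under the empty label (log2 2.35, SE 0.17, adjusted p = 1.81e-05). GENCODE also lists a Trp53 pseudogene whose name is not among the gene names of the tables, and reads could be shared with it.

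The alternative end made up a smaller share of Trp53 reads in TS/A, by count and without a test. It took 19.8% and 18.3% of the reads in TS/A Gpr56 libraries, against 22.6% and 24.5% in 4T1 Gpr56 libraries. In the empty-vector libraries it took 18.4% and 18.9% in TS/A, against 24.3% and 25.3% in 4T1. The 4 TS/A libraries lay below the 4 4T1 libraries, and the Wilson 95% intervals reached from 17.1% to 20.9% in TS/A and from 19.99% to 28.5% in 4T1, so the intervals overlapped. The alternative transcript has 97 bases that the usual one lacks and the usual one 46 that the alternative lacks, so the share rests on how reads over the common bases were divided.

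Mdm2 and Cdkn1a, the feedback arm and the cell cycle arm of p53, were both higher in TS/A, by very different amounts. Mdm2 (chr10:117688875-117710758), which marks p53 for destruction, stood at 89.8 and 93.3 CPM in TS/A Gpr56 libraries, against 74.1 and 66.4 CPM in 4T1 Gpr56 libraries. Under the empty label it stood at 79.0 and 95.9 CPM in TS/A, against 63.0 and 64.6 CPM in 4T1. The groups did not overlap, though with the empty vector the gap was about as large as the spread of the TS/A pair. The log2 fold change was 0.38 under the Gpr56 label (SE 0.13, edgeR adjusted p = 0.0374) and 0.45 under the empty label (SE 0.13, adjusted p = 0.0211). The empty-label call ended without 4T1 empty library 1 (adjusted p = 0.131) or 2 (adjusted p = 0.113). The Gpr56-label call ended without either 4T1 empty library (adjusted p = 0.0784 and 0.0810), either 4T1 Gpr56 library (0.0833 and 0.207) or either TS/A Gpr56 library (0.0995 and 0.155).

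Of the Mdm2 reads, an entry annotated for nonsense-mediated decay took 5.09% and 9.01% in TS/A Gpr56 libraries, against 16.0% and 21.05% in 4T1 Gpr56 libraries. For the empty vector it took 7.42% and 15.3% in TS/A, against 24.8% and 18.7% in 4T1. The lines did not overlap, but TS/A empty library 2 came close to the lowest 4T1 library, and the shares of replicates differed by more than their counting intervals. All bases of this entry also lie in the main Mdm2 entry. Apart from the junction over an exon it lacks, its share rests on how shared reads were divided. The difference in share was not tested.

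**Figure D2:**
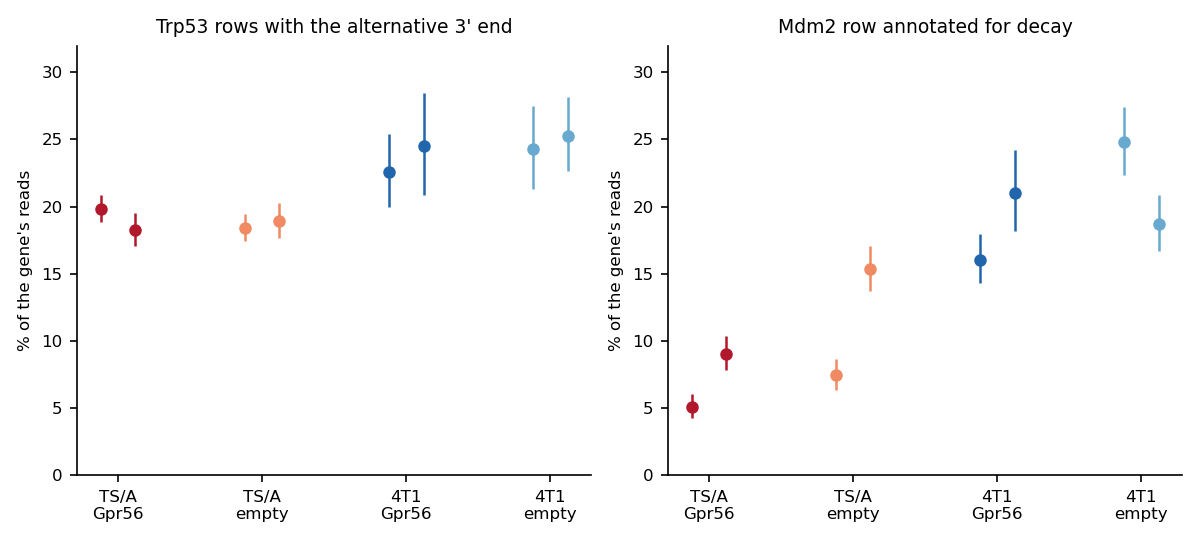
Share of each gene's reads, in percent, on the Trp53 transcripts with the alternative 3′ end (left) and on the Mdm2 transcript annotated for decay (right), with 1 point per library and Wilson 95% intervals, TS/A left of 4T1. The Trp53 share lies between 18.3% and 19.8% in TS/A and between 22.6% and 25.3% in 4T1, and the Mdm2 share spreads more within each group.

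Cdkn1a (chr17:29090976-29100727), the p21 inhibitor that p53 induces to halt the cycle, stood at 189 and 154 CPM in TS/A Gpr56 libraries, against 37.9 and 35.1 CPM in 4T1 Gpr56 libraries. With the empty vector it stood at 175 and 151 CPM in TS/A, against 24.7 and 21.04 CPM in 4T1. All TS/A libraries were well above all 4T1 libraries, and within 4T1 the Gpr56 pair was above the empty pair. The fold change was 4.69 under the Gpr56 label (log2 2.23, SE 0.16, edgeR adjusted p = 1.57e-05) and 7.14 under the empty label (log2 2.84, SE 0.16, adjusted p = 5.63e-06). An uncharacterised antisense gene overlaps Cdkn1a, and the library kit does not mark strand, so reads of the pair cannot be told apart.

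Ccng1 (chr11:40748552-40755311), cyclin G1, an early p53 target, was modestly higher in TS/A. It stood at 79.9 and 104 CPM in TS/A Gpr56 libraries, against 60.3 and 47.1 CPM in 4T1 Gpr56 libraries, and the groups did not overlap. In the empty-vector libraries it stood at 85.3 and 110.3 CPM in TS/A, against 60.7 and 59.6 CPM in 4T1, again with no overlap. The log2 fold change was 0.77 under the Gpr56 label (SE 0.19, edgeR adjusted p = 0.00946) and 0.70 under the empty label (SE 0.19, adjusted p = 0.0161). The first call ended without 4T1 Gpr56 library 2 (adjusted p = 0.0825) or TS/A Gpr56 library 2 (0.0809), and the second without 4T1 empty library 1 (0.0853) or 2 (0.0985).

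The death effectors did not pass. Bax (chr7:45461697-45466898), which permeabilises mitochondria, stood at 86.8 and 92.1 CPM in TS/A Gpr56 libraries, against 93.9 and 98.1 CPM in 4T1 Gpr56 libraries. Under the empty label it stood at 67.3 and 100.9 CPM in TS/A, against 93.6 and 95.8 CPM in 4T1. The TS/A empty pair thus lay on both sides of the 4T1 pair. The log2 fold change was -0.10 under the Gpr56 label (SE 0.18, edgeR adjusted p = 0.652) and -0.17 under the empty label (SE 0.18, adjusted p = 0.446). The empty-label value was -0.50 without TS/A empty library 2 (adjusted p = 5.86e-04) and 0.09 without TS/A empty library 1 (adjusted p = 0.384). The transcripts of Bax overlap those of Gm45808 on the same strand, so their reads could be shared.

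Bbc3 (chr7:16308393-16318205), which encodes the BH3-only protein Puma, was scarce everywhere. It stood at 6.28 and 9.23 CPM in TS/A Gpr56 libraries, against 5.34 and 2.44 CPM in 4T1 Gpr56 libraries, without overlap. For the empty vector it stood at 5.37 and 6.73 CPM in TS/A, against 3.77 and 4.84 CPM in 4T1, again without overlap. The log2 fold change was 0.94 under the Gpr56 label (SE 0.36, edgeR adjusted p = 0.0573) and 0.48 under the empty label (SE 0.36, adjusted p = 0.297). The Gpr56-label value was 1.67 without 4T1 Gpr56 library 1 (adjusted p = 0.0211), and it passed without either TS/A empty library (0.0191 and 0.0204), by DESeq2 (0.0383) and with no filter on low counts (0.0122).

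Sfn was the member that was lower in TS/A. This gene (chr4:133600556-133602168) encodes 14-3-3 sigma, a p53 target of epithelial cells that holds back entry into mitosis. It held 14 and 6 reads, 0.533 and 0.277 CPM, in TS/A Gpr56 libraries, against 179 and 178 CPM in 4T1 Gpr56 libraries. With the empty vector it held 27 and 2 reads, 1.11 and 0.108 CPM, in TS/A, against 103 and 108 CPM in 4T1. Every TS/A library lay far below every 4T1 library. The log2 fold change was -8.73 under the Gpr56 label (SE 0.48, edgeR adjusted p = 4.11e-06) and -7.30 under the empty label (SE 0.46, adjusted p = 9.36e-06). All 8 epithelial markers passed as lower in TS/A under both labels, against 27.4% (Gpr56) and 23.5% (empty) of all genes tested. The part of these markers in the Sfn difference was not tested. In bulk RNA, fewer cells of a type and less RNA per cell cannot be told apart.

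Cdkn1b (chr6:134920401-134925513), the p27 gene, did not overlap between the lines but did not pass the test. It stood at 38.7 and 43.2 CPM in TS/A Gpr56 libraries, against 33.2 and 27.6 CPM in 4T1 Gpr56 libraries. In the empty-vector libraries it stood at 38.0 and 52.7 CPM in TS/A, against 37.0 and 37.2 CPM in 4T1. The TS/A libraries were higher in each pair of groups, by little in the case of TS/A empty library 1. The log2 fold change was 0.43 under the Gpr56 label (SE 0.18, edgeR adjusted p = 0.0736) and 0.29 under the empty label (SE 0.18, adjusted p = 0.21). Without TS/A empty library 1 the values were 0.42 (adjusted p = 0.00341) and 0.51 (adjusted p = 0.00316), and without TS/A empty library 2 the Gpr56-label value was 0.42 (adjusted p = 0.00401). It also passed with no filter on low counts (adjusted p = 0.0484).

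**Figure D3:**
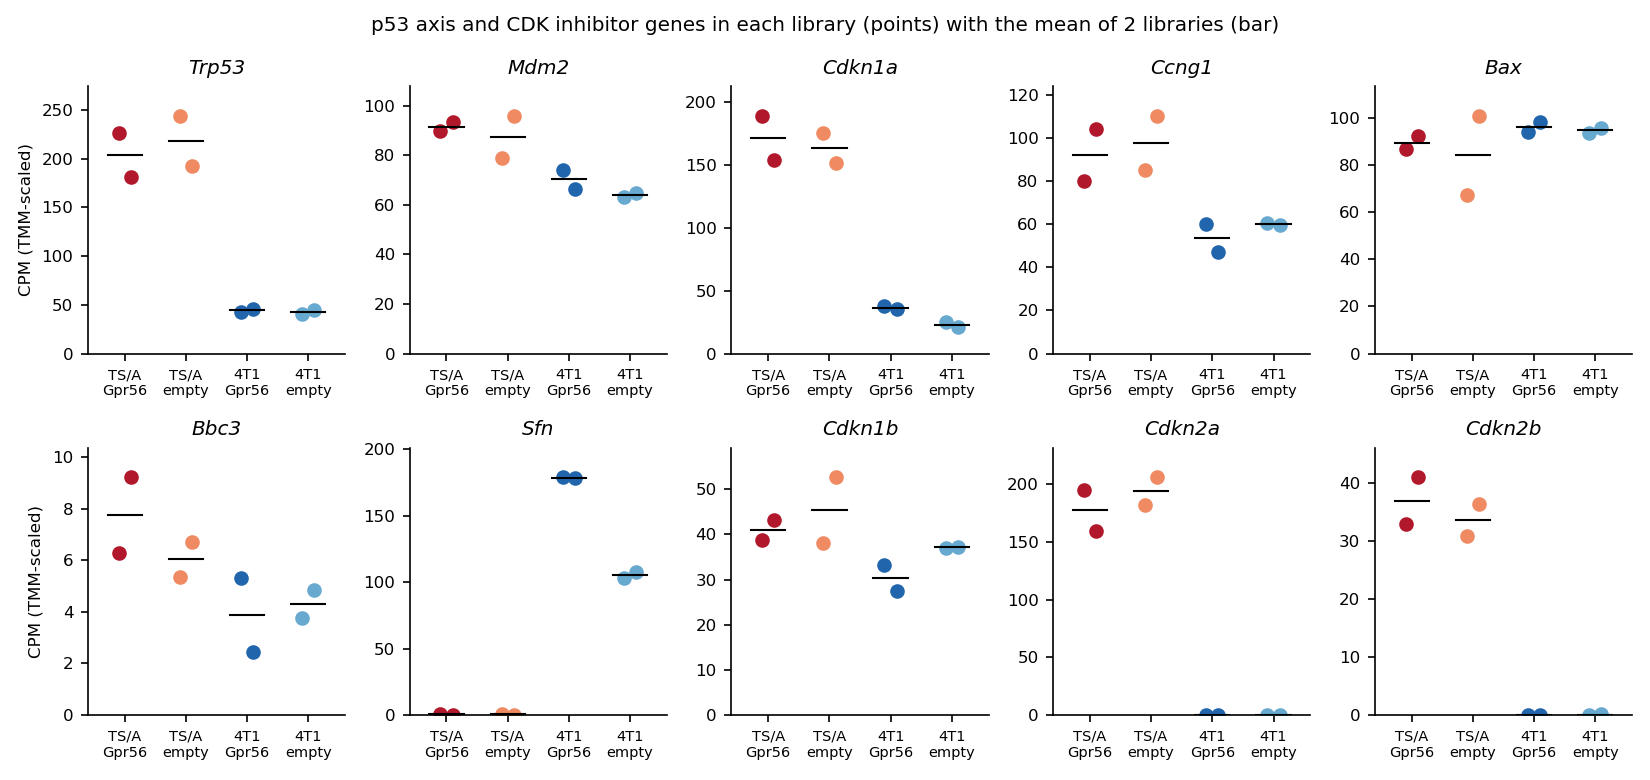
CPM after TMM scaling of the 10 genes, 1 panel per gene, each axis starting at 0, with 1 point per library and a bar at the mean of 2 libraries, TS/A left of 4T1 and Gpr56 left of empty vector. Trp53, Cdkn1a, Cdkn2a and Cdkn2b are far higher in TS/A, Sfn is far higher in 4T1, and Bax overlaps between the lines with the empty vector.

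Across both vector labels the same 7 members passed between the lines, Trp53, Mdm2, Cdkn1a, Cdkn2a, Cdkn2b and Ccng1 higher in TS/A and Sfn lower. Of all 11970 genes tested, 54% passed under the Gpr56 label and 47.4% under the empty label, 26.5% and 23.9% as higher and 27.4% and 23.5% as lower in TS/A. The members' median log2 fold change was 0.85 under the Gpr56 label and 0.59 under the empty label, against 0.00 and 0.01 over all genes tested. The count of all genes past the threshold, 6462 under the Gpr56 label and 5674 under the empty label, was 4237 for the first without 4T1 Gpr56 library 1, and 3335 and 3349 for the second without 4T1 empty library 1 or 2. Both contrasts come from 1 fit and share its estimate of the spread, but no library. Without either 4T1 empty library 4 members passed as higher under the empty label, Mdm2 and Ccng1 dropping out.

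**Figure D4:**
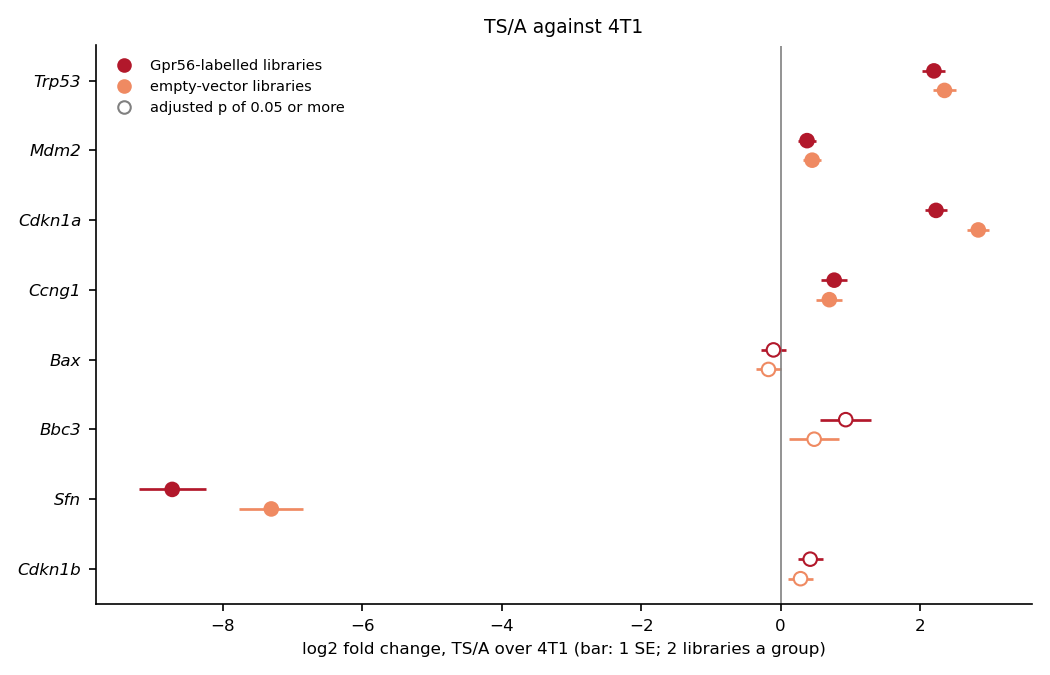
Log2 fold change of TS/A over 4T1 for 8 members, with Cdkn2a and Cdkn2b left out. Bars are 1 standard error, points are filled where the edgeR adjusted p was under 0.05, and each group has 2 libraries. Trp53 and Cdkn1a lie between 2.20 and 2.84, Mdm2 and Ccng1 between 0.38 and 0.77, and Sfn at -8.73 and -7.30.

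Ranked by level per transcript length, the axis had a different order in each line. In TS/A, Cdkn2a came first with a median summed RPKM of 206 over 4 libraries, ahead of Trp53 (110.0), Bax (97.2) and Cdkn1a (83.6). Mdm2 (28.2), Ccng1 (26.0), Cdkn2b (23.2), Cdkn1b (14.4), Bbc3 (3.38) and Sfn (0.240) followed. The ranges of Trp53 and Bax, of Bax and Cdkn1a, of Mdm2 and Ccng1 and of Ccng1 and Cdkn2b overlapped over the TS/A libraries, so those neighbours were not parted. In 4T1, Bax (102) and Sfn (83.7) came first, ahead of Trp53 (23.0), Mdm2 (20.4), Ccng1 (16.0), Cdkn1a (14.8), Cdkn1b (11.9) and Bbc3 (2.21), with Cdkn2a and Cdkn2b at a median of 0. There the ranges overlapped between Bax and Sfn, Trp53 and Mdm2, Ccng1 and Cdkn1a, and Cdkn1a and Cdkn1b. These 4T1 medians pool both vectors, and the order differed between them. Sfn averaged 106 summed RPKM with the Gpr56 vector, level with Bax at 105.5, and 61.0 with the empty vector, below Bax at 102. Cdkn1a averaged 18.2 summed RPKM with the Gpr56 vector, above Ccng1 (14.6) and Cdkn1b (10.8), and 11.2 with the empty vector, below both (16.0 and 12.5).

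The promoters of the members were searched for the p53 half-site and for the E2F motif TTTNNCGC on both strands, in RefSeq windows of 300 bases on GRCm38.p6 (250 before and 50 after a start). All 10 genes matched, with 14 windows. A half-site lay in 1 window each of 5 genes, Trp53, Mdm2, Cdkn1a, Ccng1 and Bax, against 8.36% of all 32851 windows. Of these 5 genes, Trp53, Mdm2, Cdkn1a and Ccng1 were higher in TS/A and Bax did not pass. The Cdkn1a window with half-sites, which held 2, belongs to a transcript entry with 0 reads in all 8 libraries. The other Cdkn1a window, at the start of the entry with 99.7% of the gene's reads, held 0 half-sites. The E2F motif lay in 3 of the 14 windows, 1 of Mdm2 and both of Cdkn2a, against 5.17% of all windows. The Arf window held 45 CpG, more than 98.1% of windows (median 7). Shown with 20 bases on each side, in capitals, is the E2F match of Arf (chr4:89294691-89294738, minus strand, 99 bases before the start). Also shown are half-sites of Cdkn1a (chr17:29090908-29090957, plus), Mdm2 (chr10:117710915-117710964, minus), Ccng1 (chr11:40755442-40755491, minus) and Bax (chr7:45467070-45467119, minus). For Cdkn1a this is the site nearer the start, and the lower-case bases before it hold the end of the other. The Trp53 half-site and the remaining E2F matches are not shown. Such matches are descriptions of letters, not measured binding, and no match overlapped another motif.
Arf E2F match: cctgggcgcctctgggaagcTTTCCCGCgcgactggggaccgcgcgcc
Cdkn1a half-site: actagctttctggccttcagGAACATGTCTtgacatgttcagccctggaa
Mdm2 half-site: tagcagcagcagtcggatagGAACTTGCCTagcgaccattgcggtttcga
Ccng1 half-site: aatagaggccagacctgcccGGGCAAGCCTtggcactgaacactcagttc
Bax half-site: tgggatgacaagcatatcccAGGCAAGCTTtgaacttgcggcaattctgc

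With the Gpr56 vector in 4T1, Cdkn1a and Sfn rose, while Trp53, Mdm2, Ccng1, Bax, Bbc3 and Cdkn1b did not pass. Cdkn1a stood at 37.9 and 35.1 CPM with the Gpr56 vector, against 24.7 and 21.04 CPM with the empty vector, both Gpr56 libraries above both empty ones. This was a 1.60-fold increase (log2 0.68, SE 0.10, edgeR adjusted p = 2.74e-04 from the 4 libraries of 4T1). Sfn stood at 179 and 178 CPM with the Gpr56 vector, against 103 and 108 CPM with the empty vector, with a gap many times the spread within either pair. This was a 1.69-fold increase (log2 0.76, SE 0.06, adjusted p = 4.11e-07). Of the 8 members tested in 4T1, 2 passed, both upward, against 22.8% of all 11361 genes tested (11.5% upward and 11.3% downward), and Cdkn2a and Cdkn2b were too scarce to test. The 2588 genes behind that share numbered 1596 on leaving out 4T1 empty library 1 and 1403 on leaving out its partner, and both members passed in each case. With the spread taken from all 8 libraries, where 0.226% of genes passed, neither passed, Cdkn1a at 0.67 (SE 0.16, adjusted p = 0.151) and Sfn at 0.76 (SE 0.30, adjusted p = 0.380).

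Other cell type markers moved with these increases. Of the 8 epithelial markers, 7 rose in 4T1 with the Gpr56 vector and 0 fell, against 11.5% and 11.3% of all genes tested. Their sum lay between 3198 and 3262 CPM, against 2202 to 2232 CPM with the empty vector. The 12 immune markers summed to between 25.2 and 28.4 CPM with the Gpr56 vector, against 13.5 to 15.1 CPM, and 4 of them were at 0 in both libraries of each group. The 9 endothelial markers summed to between 83.9 and 91.3 CPM with the Gpr56 vector, against 66.0 to 70.3 CPM, and Eng rose (log2 0.32, edgeR adjusted p = 0.0033). The 10 fibroblast markers summed to between 9.30 and 10.5 CPM with the Gpr56 vector, against 16.2 to 16.3 CPM, and Pdgfra fell (log2 -0.72, edgeR adjusted p = 0.00213). The part of these markers in the Cdkn1a and Sfn increases was not tested.

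The members that did not pass in 4T1 had log2 fold changes between -0.27 and 0.15, and the groups of Mdm2 and Cdkn1b did not overlap. Trp53 had a log2 fold change of 0.04 (SE 0.08, adjusted p = 0.757), Bax of 0.02 (SE 0.06, adjusted p = 0.882) and Bbc3 of -0.07 (SE 0.29, adjusted p = 0.899). For Mdm2 the value was 0.15 (SE 0.07, adjusted p = 0.146), and it passed without 4T1 Gpr56 library 2 at 0.21 (adjusted p = 0.0347). For Ccng1 the value was -0.14 (SE 0.09, adjusted p = 0.283), and it passed without 4T1 Gpr56 library 1 at -0.35 (adjusted p = 0.00603). Cdkn1b stood at 33.2 and 27.6 CPM with the Gpr56 vector, against 37.0 and 37.2 CPM with the empty vector (a log2 fold change of -0.27, SE 0.10, adjusted p = 0.0556). It passed without 4T1 Gpr56 library 1 at -0.43 (adjusted p = 0.00755) and with no filter on low counts (adjusted p = 0.0254).

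In TS/A, 0 of 10 members passed between the vector labels, as did 0% of 11276 genes by edgeR, with 115 at an unadjusted p under 0.05 and 3 by DESeq2. Cdkn1a stood at 189 and 154 CPM in libraries labelled Gpr56, against 175 and 151 CPM in empty libraries (log2 fold change 0.07, SE 0.19, adjusted p = 1). Trp53 stood at 226 and 181 CPM with the Gpr56 label, against 244 and 193 CPM with the empty label (log2 fold change -0.10, SE 0.21). Cdkn2a stood at 195 and 159.8 CPM with the Gpr56 label, against 182 and 206 CPM with the empty label (-0.13, SE 0.20). In each of these the pairs overlapped. The other 7 members had log2 fold changes between -0.62 for Sfn, which rests on 20 against 29 reads, and 0.35 for Bbc3, all with an adjusted p of 1. Adgrg1 itself differed by -0.51 (SE 0.41) in this comparison, so these values compare labels that its own mRNA did not part. Without TS/A empty library 2, Adgrg1 was at -0.93 (adjusted p = 0.0348) and 1140 genes passed, with 0 of 10 members among them.

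Whether the vector effect differed between the lines was tested as an interaction over all 8 libraries, and 0 of 10 members passed, against 0.0668% of all genes tested. For Cdkn2a and Cdkn2b the 4T1 side of this test rests on 1 and 2 reads, too few to show a vector effect. Nothing about such a difference follows from their not passing. For Cdkn1a the vector effect in TS/A minus that in 4T1 was -0.61 on the log2 scale (SE 0.21, unadjusted p = 0.0214, adjusted p = 0.669). For Sfn it was -1.42 (SE 0.77, adjusted p = 0.811). The TS/A side of the Sfn value rests on 20 reads under the Gpr56 label and 29 under the empty label. On leaving out each library in turn, the Sfn value ran from -2.15 to 1.14. Without TS/A empty library 2 the call changed for 3 members, Cdkn1a at -0.71 (adjusted p = 0.0133), Sfn at -2.15 (adjusted p = 0.00331) and Bax at 0.40 (adjusted p = 0.0332). The count of all genes past the threshold was 8, and 2391 without that library. Its pair differed more than any other, with a chi-square per degree of freedom of 17.4 between the TS/A Gpr56 libraries and of 118 between the TS/A empty libraries.

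**Figure D5:**
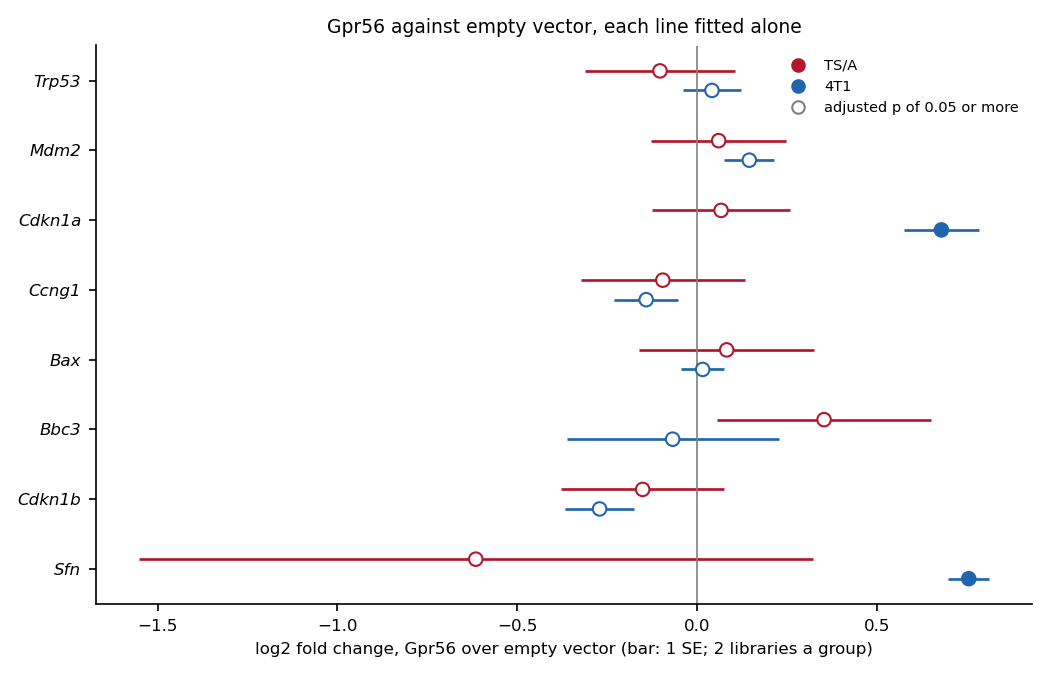
Log2 fold change of the Gpr56 over the empty vector label in each line, fitted on the 4 libraries of that line. Shown are 8 members, with Cdkn2a and Cdkn2b left out. Bars are 1 standard error, and points are filled where the edgeR adjusted p was under 0.05. In 4T1, Cdkn1a (0.68) and Sfn (0.76) passed, while the TS/A values lie between -0.62 and 0.35 with wider errors and none passed.

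Of 32 other p53 targets, 30 were tested. Between the lines, 8 passed as higher and 8 as lower in TS/A under the Gpr56 label, against 26.5% and 27.4% of all genes tested, and 7 and 7 under the empty label, against 23.9% and 23.5%. These shares are near those over all genes, and the medians were 0.22 and -0.08. Ak1, adenylate kinase 1, averaged 28.8 ± 1.03 CPM in TS/A empty libraries and 1.78 ± 0.190 CPM in 4T1 empty libraries (SD, n = 2 each; log2 difference 4.02, SE 0.20, edgeR adjusted p = 2.79e-06). Phlda3, an inhibitor of Akt, averaged 32.8 ± 2.13 CPM in TS/A and 8.80 ± 0.113 CPM in 4T1 (1.90, SE 0.13). Perp, a desmosome protein of epithelia, averaged 1.11 ± 0.0502 CPM in TS/A and 95.7 ± 5.09 CPM in 4T1 (-6.41, SE 0.17, adjusted p = 3.39e-07). The kinase Plk2 averaged 71.1 ± 10.2 CPM in TS/A and 332 ± 17.4 CPM in 4T1 (-2.22, SE 0.14). Perp was thus low in TS/A like Sfn, and the part of epithelial cell type in either difference was not tested.

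In 4T1, 3 of the 29 targets tested rose and 5 fell with the Gpr56 vector, against 11.5% and 11.3% of all genes tested. The median of the targets was -0.08. Perp averaged 157 ± 0.745 CPM with the Gpr56 vector and 95.7 ± 5.09 CPM with the empty vector (a log2 fold change of 0.72, SE 0.06, edgeR adjusted p = 1.15e-06), and Plk3 rose by 0.28 (SE 0.07). Gadd45a, a DNA damage response gene, averaged 6.79 ± 0.205 CPM with the Gpr56 vector and 12.4 ± 1.90 CPM with the empty vector (-0.88, SE 0.16, adjusted p = 0.0013), and Plk2 fell by 0.26 (SE 0.06). In TS/A, 0 of 30 passed.

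Among 17 regulators and relatives of p53, 15 were tested, and 2 passed as higher and 7 as lower in TS/A under each label. Over all genes tested, 26.5% passed as higher and 27.4% as lower under the Gpr56 label, and 23.9% and 23.5% under the empty label. The list's medians were -0.39 under the Gpr56 label and -0.22 under the empty label. Chek2, a kinase that activates p53, averaged 22.4 ± 0.538 CPM in TS/A empty libraries and 12.01 ± 0.755 CPM in 4T1 empty libraries (0.90, SE 0.14). Mdm4, the partner of Mdm2, averaged 60.0 ± 5.19 CPM in TS/A and 36.7 ± 0.679 CPM in 4T1 (0.71, SE 0.16). Ppp1r13l, an inhibitor of p53, averaged 6.54 ± 0.722 CPM in TS/A and 22.0 ± 1.52 CPM in 4T1 (-1.74, SE 0.16), and the log2 fold change of Chek1, a checkpoint kinase, was -1.19 (SE 0.16). With the Gpr56 vector in 4T1, Ppp1r13l rose by 0.34 (SE 0.11, adjusted p = 0.0336) and Chek1 fell by 0.34 (SE 0.06, adjusted p = 8.86e-04), and 13 did not pass. Of all genes tested in 4T1, 11.5% rose and 11.3% fell.

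Of the 4 other inhibitors of cyclin-dependent kinases, 3 were tested. Cdkn2c, the p18 member of the Ink4 family, ran opposite to Cdkn2a and Cdkn2b, averaging 13.8 ± 0.783 CPM in TS/A Gpr56 libraries and 63.8 ± 5.27 CPM in 4T1 Gpr56 libraries (log2 fold change -2.21, SE 0.18, edgeR adjusted p = 4.03e-05). Under the empty label it averaged 17.1 ± 4.30 CPM in TS/A and 60.7 ± 4.17 CPM in 4T1 (-1.82, SE 0.18, adjusted p = 1.19e-04). Cdkn3 (0.49, SE 0.15) and Cdkn2d, the p19 Ink4 gene (0.65, SE 0.22), passed as higher in TS/A under the empty label and did not pass under the Gpr56 label. Over all genes tested, 47.4% passed between the lines under the empty label and 54% under the Gpr56 label. The interaction, which tests the difference between labels, called 0 of the 3, against 0.0668% of all genes tested. None of the 3 passed between the vectors in either line by edgeR, against 22.8% of all genes tested in 4T1 and 0% in TS/A.

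Downstream, all 17 kinases, cyclins, RB and E2F genes were tested. In TS/A, 5 passed as higher and 5 as lower under the Gpr56 label, against 26.5% and 27.4% of all genes tested, and 4 and 4 under the empty label, against 23.9% and 23.5%. These shares are near those over all genes, and the medians were -0.08 and 0.01. Rb1, the target of the kinases that Ink4 proteins block, averaged 13.0 ± 3.64 CPM in TS/A empty libraries and 5.72 ± 0.613 CPM in 4T1 empty libraries (1.18, SE 0.27, adjusted p = 0.00844). Ccnd1, cyclin D1, averaged 623 ± 68.2 CPM in TS/A and 1281 ± 4.89 CPM in 4T1 (-1.04, SE 0.13, adjusted p = 3.55e-04), and Skp2, which degrades p27, had a value of -0.91 (SE 0.14). With the Gpr56 vector in 4T1, 1 rose and 5 fell, against 11.5% and 11.3% of all genes tested, with a median of -0.09. Ccnd1 averaged 1065 ± 23.8 CPM with the Gpr56 vector and 1281 ± 4.89 CPM with the empty vector (-0.27, SE 0.05, adjusted p = 0.00123), Ccnd3 fell by 0.35 (SE 0.07) and Ccne1, cyclin E1, rose by 0.28 (SE 0.09).

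Of 16 regulators of the Ink4-Arf locus, 15 were tested between the lines. Under the Gpr56 label 2 passed as higher and 5 as lower in TS/A, against 26.5% and 27.4% of all genes tested. Under the empty label 1 and 2 passed, against 23.9% and 23.5%. The Polycomb subunit Rnf2 averaged 71.2 ± 2.03 CPM in TS/A empty libraries and 47.8 ± 3.32 CPM in 4T1 empty libraries (0.58, SE 0.12, adjusted p = 0.00514). Ets1, an activator of Ink4a, averaged 104 ± 21.1 CPM in TS/A and 304 ± 7.86 CPM in 4T1 (-1.54, SE 0.15, adjusted p = 9.16e-05). With the Gpr56 vector in 4T1, 4 of 14 rose and 3 fell, against 11.5% and 11.3% of all genes tested. Id1, a repressor of Ink4a, averaged 48.5 ± 4.39 CPM with the Gpr56 vector and 26.8 ± 1.26 CPM with the empty vector (0.86, SE 0.09, adjusted p = 9.43e-06). Ets2 rose by 0.55 (SE 0.06) and Ets1 fell by 0.33 (SE 0.05), with Cdkn2a itself at 0 or 1 read in these libraries.

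Among 14 tested partners of Bax and Bbc3, 4 passed as higher and 1 as lower in TS/A under each label. Over all genes tested, 26.5% passed as higher and 27.4% as lower under the Gpr56 label, and 23.9% and 23.5% under the empty label. Bok, a relative of Bax, averaged 102 ± 13.1 CPM in TS/A empty libraries and 50.9 ± 0.550 CPM in 4T1 empty libraries (1.003, SE 0.14). Mcl1, a survival protein that Puma binds, averaged 348 ± 9.02 CPM in TS/A and 219.5 ± 4.26 CPM in 4T1 (0.67, SE 0.11), and Bid had a value of -0.40 (SE 0.13). With the Gpr56 vector in 4T1, 3 of these partners rose and 3 fell, against 11.5% and 11.3% of all genes tested. Among them the survival gene Bcl2l1 (Bcl-xL) rose by 0.35 (SE 0.06) and Mcl1 fell by 0.24 (SE 0.06). Of the 6 other 14-3-3 genes, 1 passed between the lines, Ywhaz, at 457 ± 21.3 CPM in TS/A empty libraries and 1030.1 ± 21.6 CPM in 4T1 empty libraries (-1.17, SE 0.12).

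The genes whose log2 CPM followed Trp53 most closely over the 8 libraries were Cfap70 (Pearson r = 0.999), Ly6e (0.999) and Irx3 (0.998). Those closest to Cdkn1a were Naglu (0.998), Unc93b1 (0.996) and H2-T23 (0.994). The libraries fall into 2 clusters by line, so these values mainly say that each gene was higher in TS/A. Ly6e, for example, stood at 195 and 160.1 CPM in TS/A Gpr56 libraries, against 34.7 and 36.6 CPM in 4T1 Gpr56 libraries.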

How the data were processed

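RNA was taken up with RNeasy columns and sequenced from TruSeq RNA v2 libraries, which carry no strand information, per the labels' protocols. The deposited files list 65042 transcripts with a whole-number count of total gene reads and, per the file headers, an RPKM made by the authors. For the aligner, counter, build and annotation, the sources used here name none.

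Counts were summed per gene name (22026 names, 15815 with a read). Transcripts were identified through GENCODE M21, which holds 65023 of the identifiers. The deposited RPKM served only to rank genes and transcripts by length-scaled level and was not tested. Replicate pairs differed by more than sampling noise, with chi-square per degree of freedom from 3.58 to 118, so none was merged.

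Tests used edgeR 4.0.16 in R 4.3.3 (filterByExpr, TMM, quasi-likelihood) with Benjamini-Hochberg adjustment over all genes tested and a threshold of 0.05. Line contrasts and the interaction came from 1 fit of all 8 libraries (biological coefficient of variation 14.7%). Vector contrasts came from the 4 libraries of each line (5.47% in 4T1, 19.6% in TS/A), because the spread between replicates was known to differ between the lines. A standard error here is the log2 value over the root of its quasi-likelihood F. Marker sums are plain CPM of the library total, other CPM are TMM-scaled. Shares carry Wilson intervals. Scripts were tested on simulated counts. Alternatives were other scalings, DESeq2 1.42.0, limma 3.58.1 voom, other filters, a replicate block, annotation-based sums, other library sets and leaving out each library.

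The 10 members, the lists and the tests were chosen with earlier results of these data known. Named were all members, Adgrg1, up to 2 members each way of each list past the threshold, or the 2 most abundant, and the 3 genes most like Trp53 and Cdkn1a; Hacd4, Klhl9, Mtap, Dmrta1 and Elavl2 between the lines, and the epithelial markers by level, were named beyond that rule as whole lists.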

Additional observations from a re-analysis of the deposited data

How the results depend on the processing

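Of the member values between the lines, the calls of Trp53, Cdkn1a, Cdkn2a, Cdkn2b and Sfn held under every alternative run. Bax with the Gpr56 vector and Bbc3 with the empty vector passed under none. The other member calls between the lines changed on leaving out a library. Those of Cdkn1b and Bbc3 with the Gpr56 vector also changed with no filter and with the replicate block, and that of Bbc3 by DESeq2. A fit without 1 library rests on a lone sample assumed to vary like the others. Leaving out each library in turn, genes past the threshold ran from 4237 to 8536 (TS/A against 4T1, Gpr56 vector), from 3335 to 7853 (the same, empty vector), from 1403 to 2748 (vectors in 4T1), from 4 to 1140 (vectors in TS/A, highest without TS/A empty library 2) and from 0 to 2391 (interaction, again highest without that library; 311 without TS/A empty library 1). In 4T1 the count of 2588 was 1549 by DESeq2 and 27 in the fit of all 8 libraries. With library totals it was 2666, split 1624 up and 1042 down, against 1308 and 1280 with TMM. In TS/A the count of 0 was 3 by DESeq2, 4 with no filter and 1 in the fit of all 8 libraries. The interaction count of 8 (2 up, 6 down) was 4 with library totals (0 up, 4 down), 66 by DESeq2, 2 by voom and 60 with no filter. The cause was not tested.

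The main fits did not pair libraries by replicate number. Deviations of same-numbered libraries correlated at 0.31 in TS/A and -0.02 in 4T1 over genes. Same-numbered TS/A libraries thus deviated partly together, and the source of this was not tested. With the replicate block the counts were 7123 between the lines with the Gpr56 vector and 6386 with the empty vector, 26 between vectors in TS/A and 2824 in 4T1, and 37 for the interaction. Under that block Cdkn1b passed in 4T1 (-0.28, adjusted p = 0.0253) and, between the lines with the Gpr56 vector, Cdkn1b (0.43, 0.0279) and Bbc3 (0.95, 0.0274) passed as well.

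Signs turned only on leaving out a library, and only for values that had not passed. With the empty vector, TS/A against 4T1, Bax ran from -0.50 to 0.0917. Between the vectors in 4T1, Trp53 ran from -0.0181 to 0.12, Ccng1 from -0.35 to 0.00231, Bax from -0.0144 to 0.0510 and Bbc3 from -0.83 to 0.30. Between the vectors in TS/A, Trp53 ran from -0.26 to 0.0730, Mdm2 from -0.0721 to 0.23, Cdkn1a from -0.0764 to 0.21, Cdkn1b from -0.37 to 0.13, Cdkn2a from -0.27 to 0.00312, Cdkn2b from -0.0354 to 0.29, Ccng1 from -0.30 to 0.13, Bax from -0.18 to 0.43, Sfn from -1.39 to 1.88 and Adgrg1 from -0.93 to 0.14. For the interaction, Trp53 ran from -0.32 to 0.0373, Mdm2 from -0.21 to 0.0732, Cdkn1b from -0.0858 to 0.39, Ccng1 from -0.13 to 0.26, Bax from -0.19 to 0.40 and Sfn from -2.15 to 1.14.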
